A study of Mus musculus with 28 samples.

Results

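The interferon response and antigen presentation genes were followed through mouse colon organoids in which tumor alleles were switched on. The set holds 44 genes chosen by name in 4 roles, which are 11 receptors and signaling factors, 18 interferon-stimulated genes, 11 genes of major histocompatibility complex (MHC) class I presentation and 4 of class II presentation. Of these, 40 were among the 13519 genes counted, with 11, 17, 10 and 2 in the respective roles, and *Gbp2*, *Nlrc5*, *H2-Aa* and *Ciita* were not analysed here. All organoids were C57BL/6N, carried 2 floxed *Apc* alleles and expressed a tamoxifen-inducible Cre from the *Villin* promoter, which is active in the intestinal epithelium. AC organoids (VillinCreERT2::APCflox/flox) carried nothing further, PAC organoids added Trp53LSL-R172H/+, BAC organoids added BraffloxV600E/+, and BPAC organoids carried both added alleles. Each culture received 3.5 µM 4-hydroxytamoxifen (4-HT), which activates Cre, or ethanol (EtOH), its vehicle, for 24 hours, and RNA was taken 3 days later. The AC cultures came from 1 donor mouse and those of PAC, BAC and BPAC from 2 donors each, and every donor gave 2 cultures, called duplicates 1 and 2, which are distinct passages. Each treatment therefore had 2 AC samples and 4 samples of every other genotype, 28 samples in all. No organoid without the floxed *Apc* alleles or without Cre was treated, so an effect of 4-HT itself and of recombination cannot be told apart, and AC rests on 1 donor.

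Interferons signal in 2 main ways. Type I interferons bind the receptor of *Ifnar1* and *Ifnar2* and lead to activation of genes with the interferon-stimulated response element (ISRE), whereas interferon gamma binds the receptor of *Ifngr1* and *Ifngr2* and leads to activation of genes with the gamma-activated site (GAS). The genes switched on include antiviral effectors and the machinery of class I presentation, in which the immunoproteasome (*Psmb8*, *Psmb9*, *Psmb10*) cuts peptides, the transporter of *Tap1* and *Tap2* moves them into the endoplasmic reticulum, tapasin (*Tapbp*) helps to load them, and a heavy chain paired with β2-microglobulin (*B2m*) carries them to the surface for T cells. Class II presentation uses other chains, with the invariant chain *Cd74*, and is best known from immune cells, although the intestinal epithelium can use it.

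The DNA before the start site of 4 members is shown, since these genes carry the results below and their windows differ in the interferon motifs. Each line gives the 250 bases before the RefSeq start on GRCm38.p6, 5′ to 3′ along the gene, with matches to the ISRE core GAAANNGAAA or to the GAS letters TTCNNNGAA, searched on both strands, in capitals. *B2m* lies at chr2:122147437-122147686, plus strand, *H2-T23* at chr17:36032702-36032951, minus strand, *Ifit1* at chr19:34640639-34640888, plus strand and *Psmb9* at chr17:34187331-34187580, minus strand.
B2m: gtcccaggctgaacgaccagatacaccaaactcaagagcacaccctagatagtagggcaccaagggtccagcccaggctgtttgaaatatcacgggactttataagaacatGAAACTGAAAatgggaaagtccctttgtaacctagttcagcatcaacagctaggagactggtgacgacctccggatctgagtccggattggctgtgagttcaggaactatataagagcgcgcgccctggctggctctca
H2-T23: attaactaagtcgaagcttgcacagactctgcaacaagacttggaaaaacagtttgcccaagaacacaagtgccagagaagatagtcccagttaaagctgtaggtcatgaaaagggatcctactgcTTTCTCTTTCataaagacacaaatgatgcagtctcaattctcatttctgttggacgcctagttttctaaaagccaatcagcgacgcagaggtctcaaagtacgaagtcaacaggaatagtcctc
Ifit1: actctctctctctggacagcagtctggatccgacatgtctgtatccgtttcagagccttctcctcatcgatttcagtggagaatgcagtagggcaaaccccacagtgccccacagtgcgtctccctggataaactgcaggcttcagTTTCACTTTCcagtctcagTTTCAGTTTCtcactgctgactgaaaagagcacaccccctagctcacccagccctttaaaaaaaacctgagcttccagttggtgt
Psmb9: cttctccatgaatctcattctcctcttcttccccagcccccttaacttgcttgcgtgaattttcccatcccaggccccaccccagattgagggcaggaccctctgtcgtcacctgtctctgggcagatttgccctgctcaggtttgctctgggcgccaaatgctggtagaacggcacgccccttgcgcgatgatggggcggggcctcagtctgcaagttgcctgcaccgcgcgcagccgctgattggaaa
The *B2m* and *H2-T23* windows hold 1 ISRE core each and that of *Ifit1* holds 2, while none of these letters occur in the *Psmb9* window. Over the full windows, which reach from 250 bases before to 50 after the start, 33 of the 40 members had an entry, and 12 of the 33 held an ISRE core in any of their windows, against 3.99% of all 27025 genes with an entry. A GAS match was found for 10 of the 33 members against 9.55% of those genes, and the 2 motifs can share bases, as they do in *Bst2*. Motif matches are letters only and were not tested for binding.

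Totals ranged from 20577276 to 40068718 counts per sample, the 4-HT-treated duplicate 1 samples of BAC and BPAC holding 37438687 or more and all others 30306835 or fewer, and levels are given as CPM, the count scaled by the TMM library size of its sample. All 10 epithelial markers were counted, the lowest value of any of them being 164 CPM, whereas 3 of 12 immune markers (*Cd3e*, *Itgam*, *Cd68*) and 1 of 7 fibroblast markers (*Vim*) were counted, with sums of at most 7.08 and 6.33 CPM. Summed epithelial markers ran from 18861 to 27640 CPM with EtOH and from 16311 to 19391 CPM with 4-HT in AC and PAC. In BAC and BPAC they ran from 19422 to 28816 CPM with EtOH and from 15525 to 19493 CPM with 4-HT. The part of this shift in the results was not tested. Summed immune markers ran from 2.65 to 4.45 CPM in 4-HT-treated BAC and BPAC and from 3.99 to 7.08 CPM in 4-HT-treated AC and PAC, and their part in the results was not tested. *Trp53* checked the label of its allele, with 51.4 to 66.05 CPM in EtOH-treated PAC and BPAC against 97.9 to 122 CPM in AC and BAC, and with 4-HT it stood at 148 to 227 CPM in all genotypes, while the *Braf* point mutation and the *Apc* deletion cannot be seen in counts per gene. The 4-HT-treated duplicate 1 samples of the PAC donors both held *Xist* (834 and 636 counts) and Y-linked *Ddx3y* (456 and 374 counts), which in the other 26 samples were never both above 100. They were also the closest pair within any group, with a chi-square of 2.38 per gene against 8.53 for the next pair, so they were not clearly separate donors, and the counts of called members in PAC are given with and without them. Their pairing with the EtOH-treated sample of 1 donor is therefore uncertain, which bears on every fit below with the culture as a replicate block. One more PAC culture, donor 1 duplicate 2, stood apart in the interferon-stimulated genes themselves and is treated below.

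Members fell after 4-HT in every genotype, 5 in AC and 10 in PAC but 24 in BAC and 26 in BPAC, with AC resting on 2 samples per treatment. At an edgeR adjusted p of at most 0.01, 5 of the 40 members fell in AC, where 4.25% of all genes fell and 3% rose. In PAC, 10 fell and *Bst2* rose, against 12.2% of all genes falling and 11.2% rising. In BAC, 24 members fell and none rose, against 21.5% and 20.3% of all genes. In BPAC, 26 fell and *Bst2* rose, against 23% and 22% of all genes. The median log2 change over the members was -0.43 for AC, -0.25 for PAC, -0.88 for BAC and -0.93 for BPAC, while the median over all genes lay between -0.04 and 0.01. With the culture as a replicate block, 9 members fell in AC, which added *H2-D1*, *Ifih1*, *Irf2* and *Stat2*, against 8.99% of all genes falling in that fit, and *Bst2* no longer rose in PAC. Leaving out either AC culture left no member called in AC, where 9 and 24 of all genes were then called in place of 980, but AC then had 1 sample per treatment, whose spread was taken from the other groups. In PAC, 6 members were called without the 4-HT-treated duplicate 1 samples, with the calls of *B2m*, *Bst2*, *H2-D1*, *Ifih1*, *Ifit1* and *Ifngr2* lost and *Irf8* gained, and 8 were called with those samples summed as 1, against 7.08% and 16.7% of all genes in either direction. Leaving out duplicate 1 of donor 1 or of donor 2 also gave 6 calls in PAC, and duplicate 2 of donor 2 gave 7, while the calls over all genes went from 3166 to 1719, 1422 and 2434. These are bulk samples, so fewer cells of a type and less RNA per cell cannot be told apart.

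The choice of library size moves these values by a constant. With library size alone in place of TMM, the median change over all genes became 0.23, 0.20, 0.13 and 0.18 in the AC, PAC, BAC and BPAC organoids, and the split of all genes called higher and lower turned from 406 and 574 to 1511 and 302 for AC, from 1511 and 1655 to 3388 and 737 for PAC, from 2751 and 2909 to 3881 and 2066 for BAC, and from 2979 and 3110 to 4331 and 2038 for BPAC. The members then split into 1 higher and 5 lower for AC, 3 and 5 for PAC, 1 and 22 for BAC, and 2 and 19 for BPAC. No member called with TMM turned its direction.

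**Figure D1:**
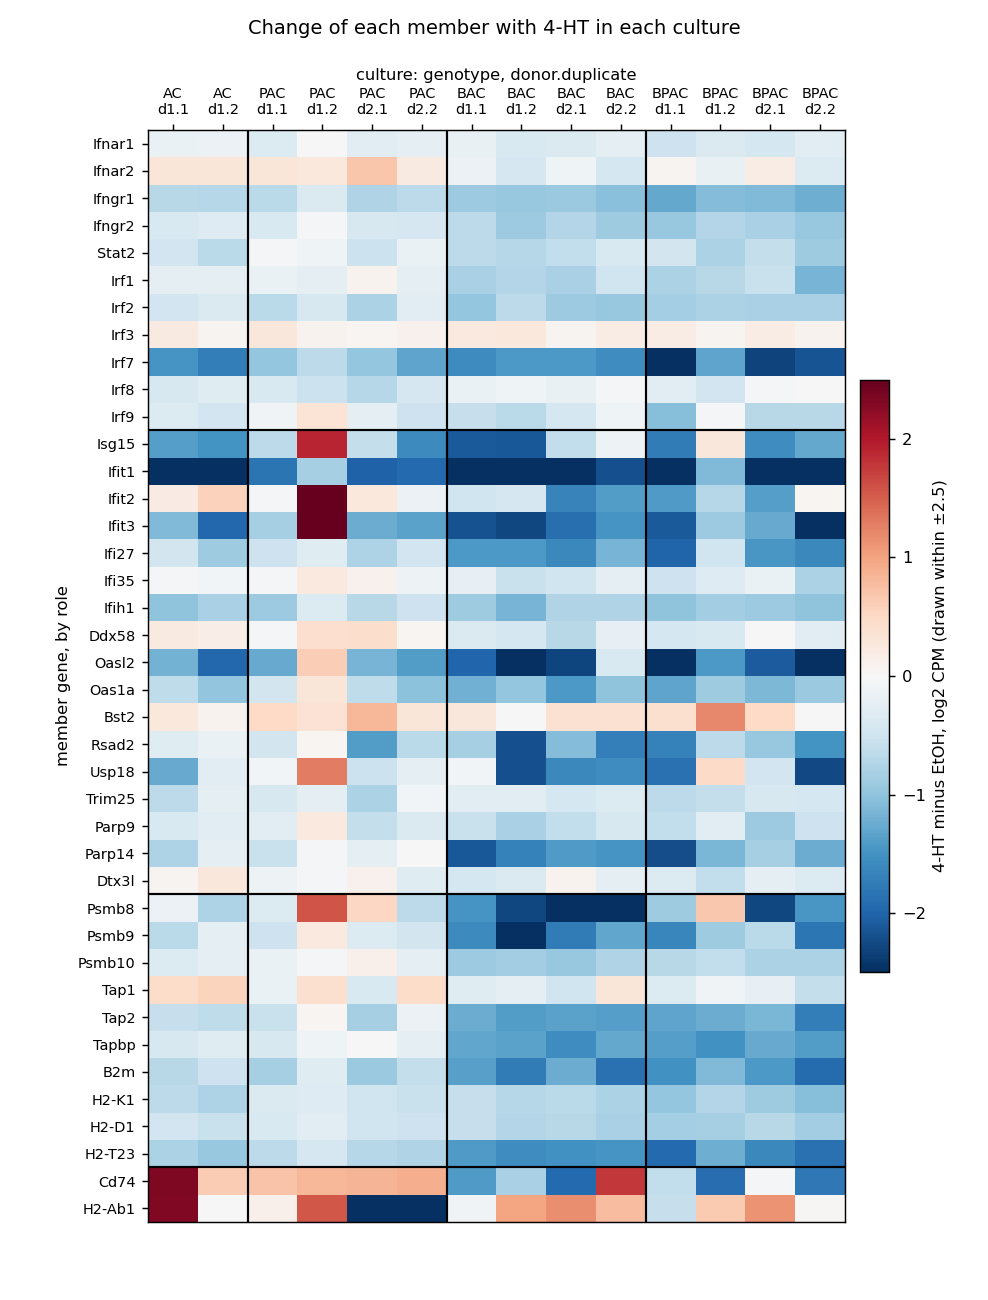
Log2 change of each of the 40 members (rows, by role) from EtOH to 4-HT in each of the 14 cultures (columns, by genotype, donor and duplicate), in log2 CPM with a prior count of 2, blue for lower and red for higher. In BAC and BPAC between 34 and 38 members were lower in each culture, against 20 to 35 in AC and PAC, where PAC donor 1 duplicate 2 was the culture with 20.

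Among the receptors and signaling factors, *Irf7* and *Ifngr1* fell in all 4 genotypes. Of the 11 members, 2 fell in AC organoids, 4 in PAC, 7 with BAC and 8 with BPAC, and none rose, against 4.25%, 12.2%, 21.5% and 23% of all genes falling in these genotypes. With the culture as a replicate block 4 fell in AC, as *Irf2* and *Stat2* were added. The 3 with the largest mean change were *Irf7*, a transcription factor that interferon itself induces and that amplifies the type I response, *Ifngr1*, the ligand-binding chain of the gamma receptor, and *Irf2*, a factor that competes with IRF1 at the same sites. Values per sample are listed from donor 1 duplicate 1 through donor 1 duplicate 2 and donor 2 duplicate 1 to donor 2 duplicate 2.

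In AC, *Irf7* stood at 78.5 and 71.4 CPM with EtOH and at 28.4 and 21.6 CPM with 4-HT. In PAC, *Irf7* stood at 72.96, 62.6, 75.2 and 68.3 CPM with EtOH and at 37.5, 39.6, 38.5 and 27.4 CPM with 4-HT. The groups did not overlap in either genotype. In BAC, *Irf7* stood at 56.8, 44.8, 51.5 and 58.4 CPM with EtOH and at 18.97, 16.5, 18.9 and 19.9 CPM with 4-HT. In BPAC, *Irf7* stood at 82.9, 64.1, 76.95 and 76.5 CPM with EtOH and at 12.9, 25.5, 15.4 and 17.03 CPM with 4-HT. Every 4-HT-treated sample was below every EtOH-treated sample of any genotype. *Irf7* fell by 1.58 ± 0.22 (SE) on the log2 scale for AC, 0.97 ± 0.15 for PAC, 1.51 ± 0.16 for BAC and 2.09 ± 0.16 for BPAC (edgeR adjusted p = 9.1e-05, 5.8e-05, 2.7e-08 and 2.1e-10). The change with and without the *Braf* allele differed by -0.52 ± 0.17, which did not pass (edgeR adjusted p = 0.041).

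In AC, *Ifngr1* stood at 446 and 439 CPM with EtOH and at 276 and 267 CPM with 4-HT. In PAC, *Ifngr1* stood at 449, 424, 469 and 438 CPM with EtOH and at 281, 332, 277 and 279 CPM with 4-HT. The highest 4-HT value of PAC was that of donor 1 duplicate 2. In BAC, *Ifngr1* stood at 406, 406, 410.3 and 431 CPM with EtOH and at 216, 211, 215 and 209 CPM with 4-HT. In BPAC, *Ifngr1* stood at 469, 564, 430.4 and 487 CPM with EtOH and at 194, 265, 199.8 and 209 CPM with 4-HT. All 8 4-HT-treated samples with the *Braf* allele lay below all 6 without it. *Ifngr1* fell by 0.70 ± 0.13, 0.61 ± 0.09, 0.96 ± 0.09 and 1.17 ± 0.09 on the log2 scale in the AC, PAC, BAC and BPAC organoids, and the fall was larger with the *Braf* allele by 0.41 (SE 0.10, edgeR adjusted p = 0.0069). This last call held in 3 of the 14 fits that each left out 1 culture. *Ifngr2*, the second chain of the same receptor, fell in PAC, BAC and BPAC by 0.32, 0.79 and 0.86, with a difference of -0.49 ± 0.09 for the *Braf* allele (edgeR adjusted p = 0.0006) that held in all 14 of those fits.

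In AC, *Irf2* stood at 77.6 and 77.6 CPM with EtOH and at 55.8 and 60.1 CPM with 4-HT. In PAC, *Irf2* stood at 82.4, 82.5, 82.3 and 71.01 CPM with EtOH and at 51.5, 62.7, 47.8 and 58.4 CPM with 4-HT. The lowest EtOH value of PAC was that of donor 2 duplicate 2. In BAC, *Irf2* stood at 81.6, 77.4, 80.9 and 86.1 CPM with EtOH and at 41.6, 49.01, 43.3 and 44.4 CPM with 4-HT. In BPAC, *Irf2* stood at 76.8, 86.3, 71.6 and 75.1 CPM with EtOH and at 42.5, 49.8, 40.9 and 42.9 CPM with 4-HT. The treatments did not overlap within any genotype. *Irf2* fell by 0.53 ± 0.09, 0.87 ± 0.09 and 0.81 ± 0.09 on the log2 scale in PAC, BAC and BPAC and changed by -0.42 ± 0.12 in AC (edgeR adjusted p = 0.019, and 0.0094 with the culture as a replicate block).

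**Figure D2:**
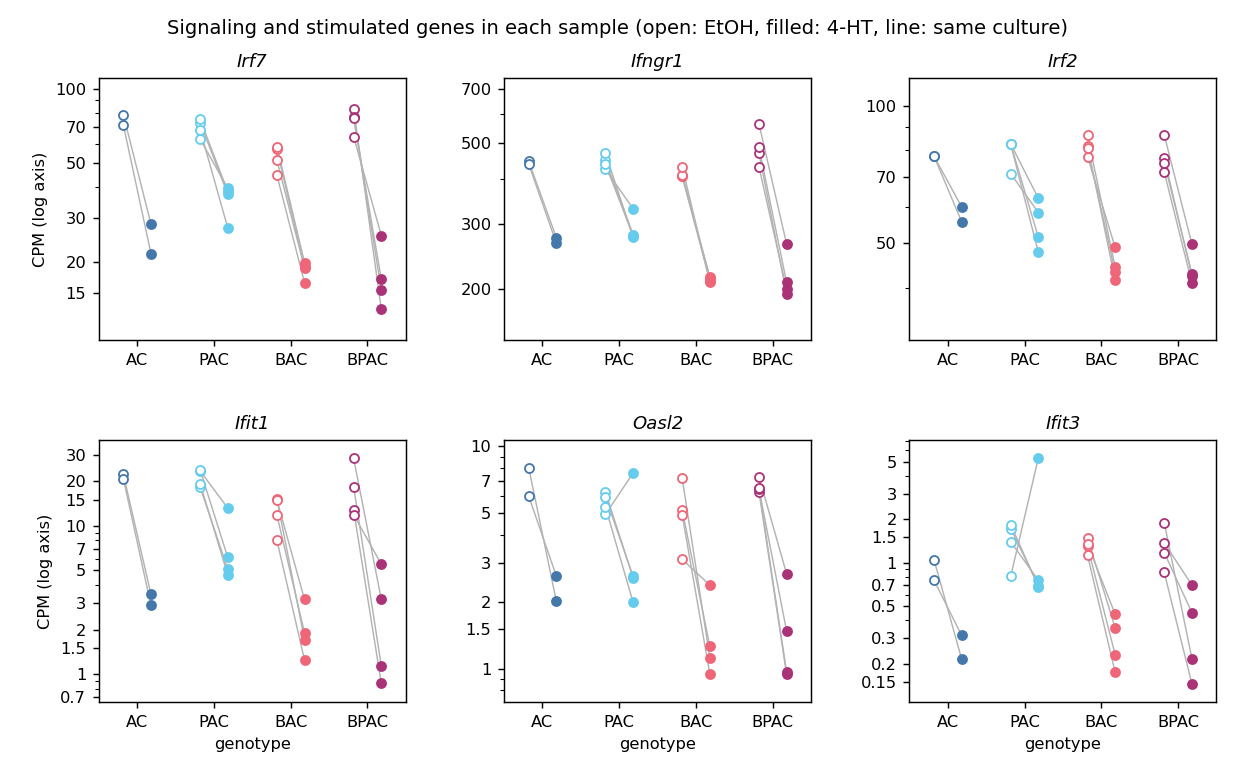
CPM (log axis) of 3 signaling factors and 3 interferon-stimulated genes in each sample, by genotype, with open circles for EtOH, filled circles for 4-HT and a line joining the samples of a culture. *Irf7*, *Ifngr1* and *Irf2* were lower with 4-HT in every culture, whereas in PAC donor 1 duplicate 2 *Oasl2* and *Ifit3* were higher with 4-HT.

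The remaining signaling members varied. *Irf1*, an activator of class I genes, fell by 0.72 in BAC and 0.80 in BPAC, and *Stat2*, a transcription factor of the type I response, fell by 0.58 and 0.69 in the same genotypes. *Ifnar1*, a chain of the type I receptor, fell by 0.29 and 0.40 there, and *Irf9* fell in BPAC by 0.58. For *Irf3*, which is activated by sensors of foreign nucleic acid, the values were 0.15, 0.13, 0.19 and 0.14, which were not called, but *Irf3* was called higher in all 4 genotypes with library size alone and in BAC with DESeq2. *Ifnar2*, which library size alone called higher in PAC, and *Irf8* were not called in any genotype by the edgeR test over all samples without the block, with log2 changes from -0.53 to 0.36. *Irf8* was called lower in PAC with the replicate block, with DESeq2 and without the 4-HT-treated duplicate 1 samples of PAC, among other settings.

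The change with 4-HT of 0 of the 17 interferon-stimulated members differed by the *Braf* allele in the edgeR test. At an unadjusted p under 0.05 that difference was found for 6 of the 17 in the edgeR test, against 28.5% of all genes, and for 7 with limma-voom and 6 with DESeq2. With 4-HT, *Ifit1* fell in AC, *Ifit1* and *Ifih1* fell in PAC, 8 fell in BAC and 10 in BPAC, and *Bst2*, which tethers budding viruses at the membrane, rose in PAC and BPAC. Of all genes 4.25% fell in AC and 12.2% in PAC, so 1 and 2 of 17 are near the background there, against 21.5% in BAC and 23% in BPAC. The members that fell in both BAC and BPAC were *Ifit1*, *Ifit3*, *Ifi27*, *Ifih1*, *Oasl2*, *Oas1a*, *Parp9* and *Parp14*, and *Ifi35* and *Trim25* were called in BPAC. With the culture as a replicate block 12 fell in BAC, where *Ddx58*, *Ifi35*, *Rsad2* and *Trim25* were added, against 26.7% of all genes, and 2 fell in AC, against 8.99%. Reads of *Ifit* and *Oas* genes may be shared with close copies, and the counting rule for such reads is not given in the sources used here. The 3 with the largest mean change were *Ifit1* and *Ifit3*, whose proteins bind viral RNA or join that complex, and *Oasl2*, a member of the oligoadenylate synthetase family.

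In AC, *Ifit1* stood at 22.1 and 20.8 CPM with EtOH and at 3.46 and 2.91 CPM with 4-HT. In PAC, *Ifit1* stood at 18.2, 23.4, 19.2 and 23.7 CPM with EtOH and at 5.10, 13.1, 4.68 and 6.13 CPM with 4-HT. The 13.1 CPM of PAC donor 1 duplicate 2 was the highest 4-HT value of any culture. In BAC, *Ifit1* stood at 11.8, 15.1, 7.98 and 14.9 CPM with EtOH and at 1.90, 1.72, 1.25 and 3.19 CPM with 4-HT. In BPAC, *Ifit1* stood at 12.7, 11.9, 18.2 and 28.4 CPM with EtOH and at 0.870, 5.51, 1.14 and 3.20 CPM with 4-HT. Within each genotype all 4-HT values lay below all EtOH values. *Ifit1* fell by 2.75 ± 0.62, 1.55 ± 0.41, 2.64 ± 0.44 and 2.76 ± 0.44 on the log2 scale in the AC, PAC, BAC and BPAC organoids (edgeR adjusted p = 0.0038, 0.0051, 2.3e-05 and 9.5e-06), folds of 6.72, 2.93, 6.22 and 6.77. Without BPAC donor 1 duplicate 2 the *Ifit1* change in BPAC was -3.54 on the log2 scale, a fold of 11.6. The difference for the *Braf* allele was -0.55 ± 0.47 with a 95% interval of -1.51 to 0.41.

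In AC, *Oasl2* stood at 5.98 and 8.03 CPM with EtOH and at 2.61 and 2.01 CPM with 4-HT. In PAC, *Oasl2* stood at 6.23, 4.94, 5.93 and 5.35 CPM with EtOH and at 2.57, 7.59, 2.60 and 1.98 CPM with 4-HT. PAC donor 1 duplicate 2 was higher with 4-HT than with EtOH, while the other 3 PAC cultures were lower. In BAC, *Oasl2* stood at 5.16, 7.19, 4.92 and 3.10 CPM with EtOH and at 1.26, 1.12, 0.944 and 2.38 CPM with 4-HT. In BPAC, *Oasl2* stood at 6.26, 7.31, 6.44 and 6.47 CPM with EtOH and at 0.943, 2.67, 1.47 and 0.963 CPM with 4-HT. All 8 of these cultures were lower with 4-HT. *Oasl2* fell by 1.85 ± 0.38 in BAC and 2.14 ± 0.38 in BPAC, and its change was -1.60 ± 0.52 in AC and -0.62 ± 0.36 in PAC (edgeR adjusted p = 0.035 and 0.18).

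In AC, *Ifit3* stood at 0.758 and 1.05 CPM with EtOH and at 0.314 and 0.216 CPM with 4-HT. In PAC, *Ifit3* stood at 1.40, 0.807, 1.72 and 1.83 CPM with EtOH and at 0.755, 5.32, 0.693 and 0.684 CPM with 4-HT. The same PAC culture held 117 counts of *Ifit3* with 4-HT and 17 with EtOH, whereas the other 3 PAC cultures fell below their EtOH values. In BAC, *Ifit3* stood at 1.30, 1.13, 1.49 and 1.34 CPM with EtOH and at 0.231, 0.175, 0.354 and 0.441 CPM with 4-HT. In BPAC, *Ifit3* stood at 0.856, 1.37, 1.17 and 1.89 CPM with EtOH and at 0.145, 0.701, 0.452 and 0.217 CPM with 4-HT. *Ifit3* fell by 2.11 ± 0.59 in BAC and 1.82 ± 0.57 in BPAC, at counts of 5 to 45 in these samples, and the BPAC call held in 5 of the 14 fits that each left out 1 culture.

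PAC donor 1 duplicate 2 departed from the other cultures in these genes as a group. With 4-HT, 11 of the 17 interferon-stimulated members were higher there than in each of the other 3 PAC samples, against 25.9% of all genes, and *Isg15*, *Ifit1*, *Ifit2*, *Ifit3*, *Oasl2* and *Usp18* were over 2 times the next PAC sample. The median log2 change of the 17 members was 0.25 in that culture and -0.46, -0.60 and -0.37 in the other PAC cultures. *Isg15*, a ubiquitin-like antiviral protein, was at 5.36 CPM there and at 0.997, 1.28 and 0.684 CPM in the other 4-HT-treated PAC samples. Without that culture 12 members were called in PAC, all lower, against 11.4% of all genes falling, with *Ifnar1* and *Oasl2* added and *Bst2* lost, and the median change of the members in PAC moved from -0.25 to -0.43. This culture was singled out after its values were seen.

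**Figure D3:**
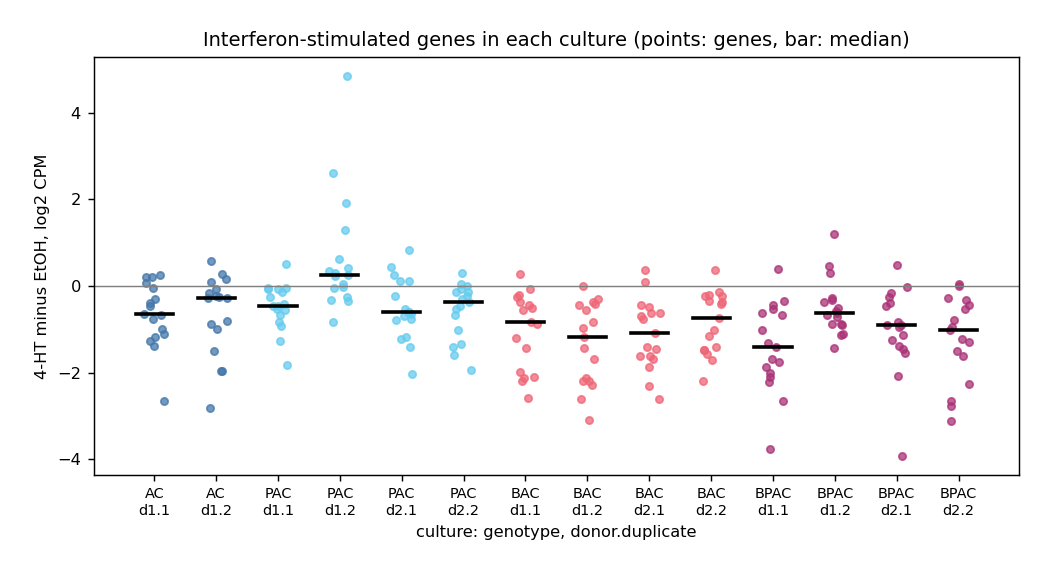
Log2 change from EtOH to 4-HT of the 17 interferon-stimulated members (points) in each of the 14 cultures, in log2 CPM with a prior count of 2, with the median as a bar. The medians lie below 0 in 13 cultures, and PAC donor 1 duplicate 2 is the culture whose median, 0.25, lies above 0.

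Class I presentation held 6 of the 8 members whose change differed by the *Braf* allele. Of its 10 members, *H2-K1* and *H2-T23* fell in AC, these with *B2m* and *H2-D1* fell in PAC, 9 fell in BAC and 8 in BPAC, and none rose, against 4.25%, 12.2%, 21.5% and 23% of all genes falling in these genotypes. The median log2 change of the 10 members was -0.50 for AC, -0.32 for PAC, -1.36 for BAC and -1.31 for BPAC. The 3 with the largest mean change were *Psmb8*, a catalytic subunit of the immunoproteasome, *H2-T23*, which encodes the nonclassical class I molecule Qa-1, and *B2m*, the chain shared by class I molecules. The class I heavy chain genes are close copies of each other, so reads may be shared between them.

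In AC, *H2-T23* stood at 205 and 167 CPM with EtOH and at 118 and 86.5 CPM with 4-HT. In PAC, *H2-T23* stood at 182, 161, 189.8 and 154 CPM with EtOH and at 116, 121, 116 and 90.8 CPM with 4-HT. In these genotypes the lowest 4-HT value was 86.5 CPM. In BAC, *H2-T23* stood at 167, 163, 193 and 173 CPM with EtOH and at 62.9, 55.6, 67.6 and 62.01 CPM with 4-HT. In BPAC, *H2-T23* stood at 230.5, 168, 189.9 and 188 CPM with EtOH and at 59.8, 72.03, 62.1 and 51.8 CPM with 4-HT. All 8 4-HT values with the *Braf* allele, at most 72.0 CPM, lay below all 6 without it. *H2-T23* fell by 0.86 ± 0.17, 0.63 ± 0.12, 1.49 ± 0.12 and 1.66 ± 0.12 on the log2 scale in the AC, PAC, BAC and BPAC organoids (edgeR adjusted p = 0.0017, 0.00032, 1.2e-09 and 1.5e-10).

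In AC, *B2m* stood at 267 and 246 CPM with EtOH and at 165 and 172.3 CPM with 4-HT. In PAC, *B2m* stood at 270.2, 254, 279 and 264 CPM with EtOH and at 153, 205, 146 and 173 CPM with 4-HT. All PAC values with 4-HT lay between 146 and 205 CPM. In BAC, *B2m* stood at 204, 277, 227 and 318 CPM with EtOH and at 80.2, 82.6, 96.2 and 87.2 CPM with 4-HT. In BPAC, *B2m* stood at 232, 248, 244 and 317 CPM with EtOH and at 81.3, 115, 90.00 and 83.9 CPM with 4-HT. Here too the 8 4-HT values with the *Braf* allele lay below the 6 without it. *B2m* fell by 0.66 ± 0.13, 1.57 ± 0.13 and 1.49 ± 0.13 in PAC, BAC and BPAC and changed by -0.61 ± 0.19 in AC (edgeR adjusted p = 0.026). Without the 4-HT-treated duplicate 1 samples of PAC the *B2m* call in PAC was lost.

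In AC, *Psmb8* stood at 0.877 and 1.09 CPM with EtOH and at 0.786 and 0.611 CPM with 4-HT. In PAC, *Psmb8* stood at 0.824, 0.332, 0.681 and 1.72 CPM with EtOH and at 0.634, 1.14, 1.00 and 1.06 CPM with 4-HT. Treatments overlapped in PAC. In BAC, *Psmb8* stood at 0.772, 0.944, 0.869 and 0.413 CPM with EtOH and at 0.231, 0.140, 0.0944 and 0 CPM with 4-HT. In BPAC, *Psmb8* stood at 0.375, 0.162, 1.32 and 0.462 CPM with EtOH and at 0.169, 0.300, 0.214 and 0.124 CPM with 4-HT. *Psmb8* was near the detection limit, with 0 to 9 counts in the 4-HT-treated BAC and BPAC samples and 4 to 28 with EtOH. It fell by 2.61 ± 0.61 in BAC and changed by -1.50 ± 0.58 in BPAC (edgeR adjusted p = 0.00081 and 0.031).

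The changes with and without the *Braf* allele were then compared directly. The fall with 4-HT was larger with the allele for 8 of the 40 members, against 3.55% of all genes with a more negative and 3.05% with a more positive change at the same threshold, and no member had a more positive one. Library size alone moved the split of all genes from 413 more positive and 480 more negative to 272 and 514, and 9 members were then called. The 8 members called with TMM were *Ifngr1* and *Ifngr2* among the signaling members and 6 class I members. *Tapbp* differed by -1.11 ± 0.13 (edgeR adjusted p = 7.6e-06), *B2m* by -0.90 ± 0.15 (edgeR adjusted p = 0.00023), *H2-T23* by -0.83 ± 0.13 (edgeR adjusted p = 0.00023), *Tap2* by -0.86 ± 0.16 (edgeR adjusted p = 0.00066), *Psmb10* by -0.62 ± 0.13 (edgeR adjusted p = 0.0021) and *Psmb9* by -1.18 ± 0.27 (edgeR adjusted p = 0.0044). With the culture as a replicate block 14 members were called, all with a more negative change, against 7.48% of all genes, which kept these 8 and added *Cd74*, *Ddx58*, *Ifi27*, *Irf1*, *Irf2* and *Parp14*. Among the interferon-stimulated members, *Ddx58*, *Ifi27* and *Parp14* were thus called with the block, and *Ifi27* also with DESeq2. Without the 4-HT-treated duplicate 1 samples of PAC 9 members were called, these 8 and *Irf2*. Of all genes 3.04% then had a more negative and 2.83% a more positive change.

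*Tapbp*, *B2m*, *H2-T23* and *Ifngr2* kept the call in all 14 fits that each left out 1 culture, *Tap2* in 13, *Psmb10* in 12 and *Psmb9* in 8. The count of 8 became 4 without AC duplicate 1 and 5 without AC duplicate 2, and 12 without BPAC donor 1 duplicate 2, while the calls over all genes went from 893 to 263, 347 and 1117. Duplicate 1 alone gave 7 calls, 5 of them among these 8, and duplicate 2 alone gave 1, *Tapbp*, with median differences over the members of -0.56 and -0.49, and over all genes 525 and 32 were called. Summing the counts of each donor gave 4 calls, with 515 over all genes. With all samples thinned to the smallest total, 7 calls were made, without *Psmb9*, against 3.31% of all genes more negative and 2.88% more positive. In 12 of the 40 members the log2 change in every culture with the *Braf* allele was lower than in every culture without it, against 4.47% of all genes, and these included *Ifnar2*, *Irf1*, *Ifi35*, *Parp14* and *H2-D1* beside 7 of the 8 members above, *Psmb9* being the exception. Of the 8 members, 7 had a RefSeq window, 2 of which (*B2m* and *H2-T23*, shown above) held an ISRE core and 0 a GAS match.

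**Figure D4:**
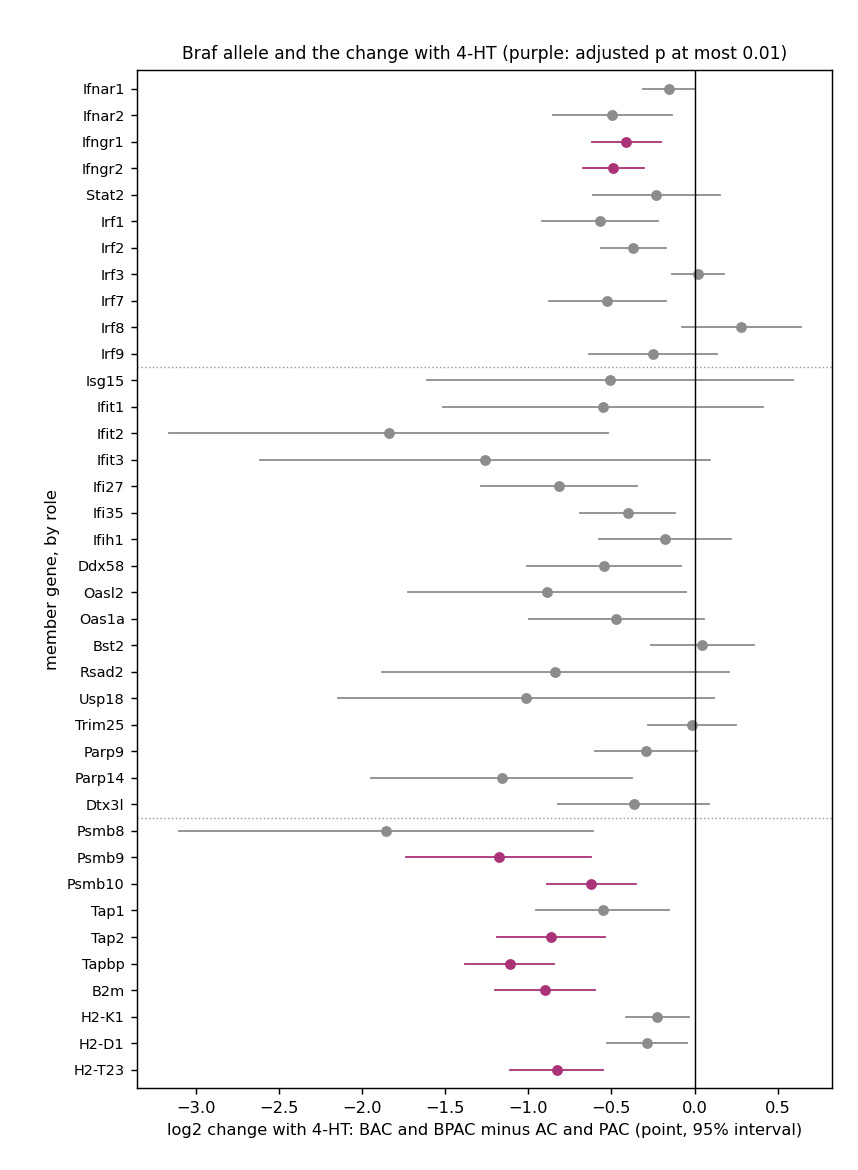
Difference of the log2 change with 4-HT between genotypes with the *Braf* allele (BAC and BPAC) and without it (AC and PAC) for the 38 members outside class II, with 95% intervals, purple where the edgeR adjusted p was at most 0.01. The 8 purple points lie between -1.18 (*Psmb9*) and -0.41 (*Ifngr1*), and intervals are widest for the interferon-stimulated genes of low counts and *Psmb8*.

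The classical heavy chains *H2-K1* and *H2-D1*, which carry most peptides, had smaller differences for the *Braf* allele than *B2m* and *H2-T23*. *H2-K1* fell by 0.71, 0.44, 0.69 and 0.91 in the AC, PAC, BAC and BPAC organoids, from 1042 ± 34.2 CPM (SD, n = 4) to 555 ± 47.5 CPM in BPAC, and its difference for the *Braf* allele was -0.22 with a 95% interval of -0.41 to -0.03 (edgeR adjusted p = 0.1). *H2-D1* fell by 0.42, 0.70 and 0.80 in PAC, BAC and BPAC, and its difference was -0.28 with an interval of -0.52 to -0.04 (edgeR adjusted p = 0.1). In the same culture the change of *H2-T23* minus that of *H2-K1* averaged -0.77 over the 4 donors with the *Braf* allele and -0.18 over the 3 without it (two-sided exact permutation test over donors, 35 splits, p = 0.0286, the smallest these can give and above the 0.01 used across genes, and 0.0476 adjusted over 5 gene pairs). For *H2-T23* minus *H2-D1* the means were -0.82 and -0.26 with the same exact p-values, and for *B2m* minus *H2-K1* they were -0.72 and -0.12, also with the same exact p-values. For *B2m* minus *H2-D1* they were -0.77 and -0.20, with an exact permutation p of 0.0571 (0.0714 adjusted). In duplicate 2 alone, where the PAC samples were separate, the exact permutation p was 0.0286 for *H2-T23* minus *H2-K1* and 0.0571 for the other 3 pairs. These pairs were chosen after the values were seen, genes called for the *Braf* allele being set against genes not called. The direction of the differences was thus set by the choice, and the adjustment over 5 pairs does not allow for that.

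*Tap1* was the class I member called in no genotype, unlike its partner *Tap2* and its neighbor *Psmb9*. *Tap1* was at 11.2 ± 1.46 CPM with EtOH and 9.84 ± 1.12 CPM with 4-HT in BAC (SD, n = 4), and its log2 changes of 0.51, 0.09, -0.19 and -0.32 in the AC, PAC, BAC and BPAC organoids were not called. The *Braf* difference had an unadjusted p under 0.05 in the edgeR test for 10 of the 10 class I members, *Tap1* included. Of all genes 28.5% had one, and limma-voom and DESeq2 also gave 10 of 10. *Tap2* fell from 10.9 ± 1.05 CPM to 4.27 ± 0.541 CPM in BAC, by 1.35 on the log2 scale, and by 1.37 in BPAC. *Psmb9* fell from 3.55 ± 0.852 CPM to 0.960 ± 0.158 CPM in BAC, by 1.88, and by 1.25 in BPAC. *Psmb9* (chromosome 17, 34181987 to 34187764, minus strand) and *Tap1* (34187553 to 34197225, plus strand) are divergent neighbors whose GENCODE models on GRCm38 overlap by 212 bases, and their RefSeq windows share 275 bases, so the *Psmb9* sequence shown above is largely also that of *Tap1*. Strand use in counting is not given in the sources used here, so reads in the overlap cannot be assigned. The change of *Psmb9* minus that of *Tap1* averaged -1.28 over donors with the *Braf* allele and -0.55 over those without it, with an exact permutation p of 0.114, also after adjustment. *Tapbp*, on the same chromosome, was at 268 ± 17.03 CPM with EtOH and 104 ± 8.72 CPM with 4-HT in BAC, and fell by 1.37 in BAC and 1.39 in BPAC, while its changes of -0.34 in AC and -0.19 in PAC were not called.

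**Figure D5:**
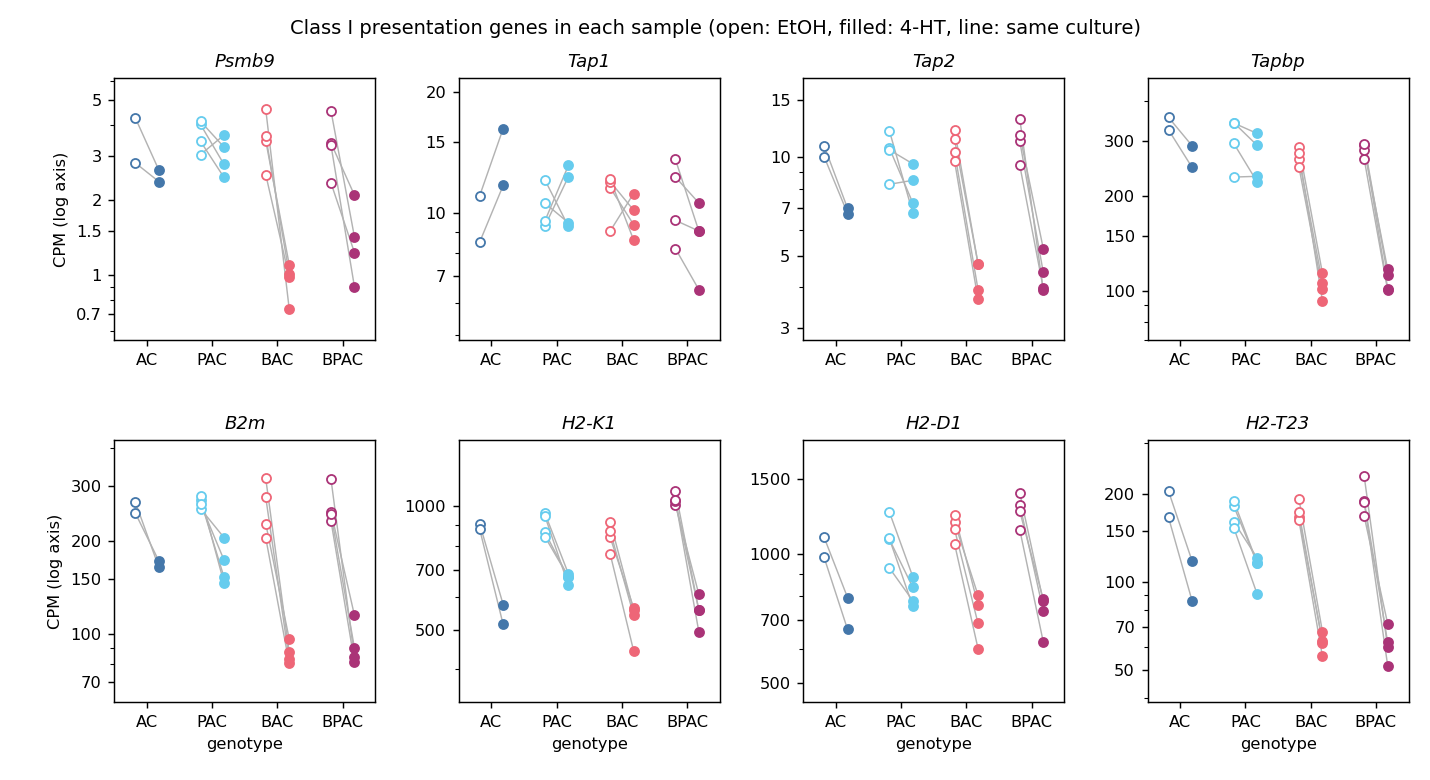
CPM (log axis) of 8 class I presentation genes in each sample, by genotype, with open circles for EtOH, filled circles for 4-HT and a line joining the samples of a culture. With 4-HT the BAC and BPAC samples of *Psmb9*, *Tap2*, *Tapbp*, *B2m* and *H2-T23* lie below all AC and PAC samples. Those of *Tap1*, *H2-K1* and *H2-D1* overlap them, and *Tap1* has lines in both directions.

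Scaled by exon length, the heavy chains and *B2m* were also the most abundant members. Over the EtOH-treated samples *H2-D1* averaged 447 CPM per kb, *H2-K1* 315 and *B2m* 303, and the ranges over samples of the last pair, 261 to 371 and 238 to 370, overlapped. *Ifngr1* followed at 157 CPM per kb, *Tapbp* at 80.5, *Ifngr2* at 78.8 and *H2-T23* at 62.6. *Psmb9* at 0.966 CPM per kb and *Psmb8* at 0.229 were far below *Psmb10* at 49.4, and *Ifit2* at 0.220 and *H2-Ab1* at 0.167 were the lowest of the 40.

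Class II presentation was close to the detection limit. *Cd74* had 0 to 52 counts per sample and *H2-Ab1* 0 to 55, and neither changed with 4-HT by the edgeR test in any genotype. With 4-HT, *Cd74* was at 1.15 ± 0.371 CPM in PAC and 0.184 ± 0.0360 CPM in BAC (SD, n = 4), and its 4-HT level was lower with the *Braf* allele by 2.36 on the log2 scale (edgeR adjusted p = 0.00015). The *Cd74* change with 4-HT differed by -2.33 ± 0.65 (edgeR adjusted p = 0.017), which passed with the culture as a replicate block (edgeR adjusted p = 0.0051) and with DESeq2. *H2-Ab1* was listed at 0 in 4 EtOH-treated samples and 2 4-HT-treated samples, and no fold is given for it.

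Levels were also compared within each treatment. With EtOH, 0 of the 40 members differed by the *Braf* allele in the edgeR test, against 0.0296% of all genes. At an unadjusted p under 0.05 in the edgeR test 6 members did, against 17.2% of all genes, as did 7 with limma-voom and 7 with DESeq2. With 4-HT, 22 of the 40 members (55%) differed, all of them lower with the allele, against 30.2% of all genes differing in either direction. With all samples thinned to the smallest total, 15.1% of all genes were higher with the allele and 14.1% lower. The *Trp53* allele changed the 4-HT response of 0 members, against 0.0148% of all genes, with 0 members at an unadjusted p under 0.05 in the edgeR test, against 1.04% of all genes, and 1 each with limma-voom and DESeq2. Between duplicates 2 and 1 with EtOH, with the donor as a block, *Parp14* rose by 0.59, *Dtx3l* by 0.50 and *Ifih1* by 0.31, and *Irf8* fell by 0.32, so 4 of 40 members differed against 15.6% of all genes. Leaving out any 1 sample gave 1 to 3 called members, with 1 called without duplicate 2 of BAC donor 1, against 8.17% of all genes in that fit.

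Other genes of the same pathways were taken from a fixed list of 95, of which 74 were counted. In BAC 29 of the 74 fell and 7 rose, in BPAC 35 fell and 9 rose, in PAC 13 fell and 4 rose, and in AC 8 fell and 2 rose. Of all genes, 21.5% fell and 20.3% rose in BAC, 23% and 22% in BPAC, 12.2% and 11.2% in PAC, and 4.25% and 3% in AC. With the culture as a replicate block 19 fell and 7 rose in PAC, against 18.4% and 16.5% of all genes, and 11 fell and 4 rose in AC, against 8.99% and 7.45%. Without the 4-HT-treated duplicate 1 samples of PAC 3 fell and 1 rose there, against 3.74% and 3.34% of all genes. Their median log2 change was -0.18 for AC, -0.23 for PAC, -0.45 for BAC and -0.52 for BPAC. The change differed by the *Braf* allele for 11 of the 74, 9 more negative and 2 more positive, against 3.55% and 3.05% of all genes, and with the block 14 were more negative and 2 more positive, against 7.48% and 6.51%. Of these 11, the 4 with the largest difference were *H2-T3*, which encodes a nonclassical class I molecule of the gut epithelium known as the thymus leukemia antigen, *Slfn2*, a Schlafen family gene, *Uba7*, the enzyme that activates ISG15, and *Ctss*, a protease that trims the invariant chain.

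In AC, *H2-T3* stood at 11.3 and 8.28 CPM with EtOH and at 2.42 and 1.58 CPM with 4-HT. In PAC, *H2-T3* stood at 20.95, 12.3, 16.9 and 5.15 CPM with EtOH and at 3.56, 3.45, 3.60 and 2.94 CPM with 4-HT. These samples kept at least 1.58 CPM. In BAC, *H2-T3* stood at 9.75, 6.94, 8.56 and 8.01 CPM with EtOH and at 0.103, 0.280, 0.0236 and 0.441 CPM with 4-HT. In BPAC, *H2-T3* stood at 11.2, 9.49, 14.7 and 16.1 CPM with EtOH and at 0.0242, 0.501, 0.119 and 0.342 CPM with 4-HT. The 4-HT-treated samples with the *Braf* allele held 1 to 15 counts of *H2-T3*, against 155 to 384 with EtOH. The fall with 4-HT differed by -3.44 ± 0.51 (edgeR adjusted p = 0.0001).

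*Uba7* fell by 2.13 in BAC and 2.05 in BPAC, from 12.9 ± 4.08 CPM to 2.94 ± 0.425 CPM (SD, n = 4) in BAC, and its change in AC and PAC was -0.36 and -0.34, not called. The difference for the *Braf* allele was -1.74 ± 0.24 (edgeR adjusted p = 6.1e-05). *Ctss* fell by 1.12 in PAC, 2.47 in BAC and 2.51 in BPAC, with a difference of -1.35 ± 0.25 (edgeR adjusted p = 0.00084). In AC the *Ctss* change was -1.16 (edgeR adjusted p = 0.014), which passed with the replicate block (edgeR adjusted p = 0.000503), and without the 4-HT-treated duplicate 1 samples of PAC the PAC change of -1.05 did not pass (edgeR adjusted p = 0.0172). *Slfn2* fell in BPAC by 1.61, its changes elsewhere were 0.66 in AC, 0.81 in PAC and -0.86 in BAC, and its difference was -1.97 ± 0.50 (edgeR adjusted p = 0.0093). The *Slfn2* change in BPAC was -0.90 without donor 2 duplicate 2, which did not pass (edgeR adjusted p = 0.128), and -2.25 without donor 2 duplicate 1. Its difference for the *Braf* allele passed in 3 of the 14 fits that each left out 1 culture.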

How the data were processed

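Gene counts of 28 colon organoid samples were analysed. The authors trimmed reads with Trimmomatic (0.39) and aligned them with STAR (2.5.2b) to GRCm38 (mm10), as named in the submitters' processing notes, and deposited raw counts per gene. The counting program, its annotation and its use of strand are not given in the sources used here. Of 13519 genes, 13479 were matched to a symbol. The table had been filtered before deposit, its lowest row sum being 116, and no further filter was applied.

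Counts were scaled by TMM and tested with edgeR (4.0.16) by the quasi-likelihood test, with 8 groups of genotype and treatment fitted over all 28 samples, and p-values were adjusted by Benjamini-Hochberg over all genes with a threshold of 0.01. The *Braf* and *Trp53* contrasts compared the log2 change with 4-HT, averaged over genotypes, with and without each allele. The duplicate comparison used the 14 EtOH-treated samples with the donor as a block. Where a label gave no duplicate number (1 BAC sample), it was taken as duplicate 1. Samples of a donor are passages of its organoids, so p-values measure the spread between these samples. Counts of close gene copies are uncertain. Totals of 20577276 to 40068718 counts per sample set the counting error, which is largest for genes of few counts.

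By their labels the EtOH and 4-HT samples of a culture came from the same organoids, so the culture was also fitted as a replicate block. Their deviations from the group means correlated in each of the 12 cultures of PAC, BAC and BPAC (r from 0.25 to 0.53, mean 0.42, against a mean of -0.06 for the other duplicate of the donor). The pairing is doubtful for duplicate 1 of the PAC donors, whose 4-HT-treated samples held both *Xist* and *Ddx3y*. There r was 0.25 for donor 1 and 0.46 for donor 2 within the culture. With the 4-HT-treated duplicate 1 sample of the other donor it was 0.26 and 0.44. Fits with the block include these cultures. Other alternatives used limma-voom (limma 3.58.1), DESeq2 (1.42.0), other library sizes and filters, summed donors, thinned counts and fewer samples. One of them, which summed the PAC duplicate 1 samples treated with 4-HT, was chosen after seeing the data. Scripts were tested on simulated data. The members and gene lists were chosen with earlier results of these data known. Genes chosen by rule were the 3 of each role with the largest mean absolute change over the 4 genotypes among those called and with a mean count of at least 10, and the 4 with the largest *Braf* difference among the other pathway genes called for it, of which *H2-T3* is given per sample. *Tapbp*, *Tap1*, *Tap2*, *Psmb9*, *H2-K1*, *H2-D1*, *Isg15*, *Cd74*, *Sting1*, *Cgas*, *Ifitm3* and *Ptpn2* were singled out after their values were seen. Upstream sequences came from RefSeq (GRCm38.p6).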

Additional observations from a re-analysis of the deposited data

Results flagged for a closer look

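Among 81 groups of 4 samples or cultures of the 9 members chosen by rule, 8 held a value far from the others by Dixon's ratio of its gap to the whole range, which chance alone does in about 1 of 20 groups of independent values. All 8 were in PAC, whose 4-HT-treated duplicate 1 samples were nearly alike, so its 4-HT levels and changes were not 4 independent values. Of these, 6 came from PAC donor 1 duplicate 2. They were the 4-HT levels of *Ifngr1* (0.924), *Oasl2* (0.891) and *Ifit3* (0.985) and the changes with 4-HT of *Ifit1* (0.833), *Oasl2* (0.886) and *Ifit3* (0.872). PAC donor 2 duplicate 2 stood apart in the EtOH level of *Irf2* (0.981) and the 4-HT level of *H2-T23* (0.834), both low. These genes share samples, so the values are not independent.

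The change with 4-HT differed by the *Braf* allele in the edgeR contrast of the genotypes for the 8 members called there and for the 4 other pathway genes picked as those with the largest difference among the called ones, whose number the choice fixes. The log2 differences were -0.41 for *Ifngr1*, -0.49 for *Ifngr2*, -1.18 for *Psmb9*, -0.62 for *Psmb10*, -0.86 for *Tap2*, -1.11 for *Tapbp*, -0.90 for *B2m* and -0.83 for *H2-T23* among the members. They were -1.74 for *Uba7*, -1.97 for *Slfn2*, -3.44 for *H2-T3* and -1.35 for *Ctss* among the other pathway genes. *Sting1* (0.88) and *Ptpn2* (0.34), given in the other observations, differed in the opposite direction.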

How the results depend on the processing

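No called value of a member changed sign under any setting. Of the 44 called log2 changes of the 13 genes chosen by rule, 550 of 604 values under other settings stayed past the threshold and 54 did not, and 559 of 616 did so when 1 culture was left out. Counts of called members moved more. In AC, 5 members became 9 with DESeq2, 9 with the culture as a replicate block, 10 with the duplicate number as a covariate, 2 with each genotype fitted alone, 8 in duplicate 1 and 0 in duplicate 2. In PAC, 11 became 7 with each genotype alone, 6 without the 4-HT-treated duplicate 1 samples and 0 in duplicate 2. In duplicate 2, BPAC gave 15 in place of 27 and the *Braf* difference at the 4-HT level gave 11 in place of 22. The *Braf* difference in the change went from 8 to 14 with the replicate block, 4 with donors summed and 1 in duplicate 2. Each duplicate alone holds fewer samples, with 1 AC sample per treatment, which is assumed to vary like the other groups; for the other shifts the cause was not tested. The replicate block moved no other total over the 40 members by over 1.5 times. Within roles it moved the falls in AC from 2 to 4 for signaling and from 1 to 2 for interferon-stimulated members, and the *Braf* difference from 2 to 4 and from 0 to 3 in these roles and from 0 to 1 in class II. The duplicate comparison gave 3 calls in place of 4 without its donor block.

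Leaving out each culture in turn gave 0 to 8 called members in AC, 6 to 12 in PAC, 21 to 27 in BAC, 23 to 28 in BPAC, 4 to 12 for the *Braf* difference in the change, 18 to 24 for that at the 4-HT level, 1 to 3 between duplicates, and 0 to 0 for the *Trp53* allele and for the EtOH level. AC rose to 8 without PAC donor 1 duplicate 2.

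Over all genes, calls in AC went from 980 to 1611 with DESeq2, 2223 with the block, 2064 with the covariate, 1813 with library size alone, 253 with genotypes alone and 13 in duplicate 2. In PAC they went from 3166 to 2036 with genotypes alone, 957 without the doubtful samples and 7 in duplicate 2, and in BAC and BPAC from 5660 and 6089 to 2838 and 2997 in duplicate 2. For the *Braf* difference in the change, 893 became 1449 with DESeq2, 1891 with the block, 1752 with the covariate, 515 with donors summed, and 525 and 32 in duplicates 1 and 2. At the 4-HT level 4084 became 1145 in duplicate 2, at the EtOH level 4 became 63 with DESeq2 and 9 with the covariate, and between duplicates 2107 became 1259 without the block. Fewer than 5 genes were called for the EtOH level or the *Trp53* allele in every other setting that kept all cultures. Low counts limit *Psmb8*, *Cd74*, *H2-Ab1* and *Ifit3*.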

Other observations

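Some genes of the same pathways rose with 4-HT. *Sting1*, the adaptor that signals cytosolic DNA, rose in every genotype, by 1.07 ± 0.26 on the log2 scale for AC, 0.93 ± 0.19 for PAC, 1.69 ± 0.19 for BAC and 2.07 ± 0.19 for BPAC, and the rise was larger with the *Braf* allele by 0.88 ± 0.21 (edgeR adjusted p = 0.0052). In AC, *Sting1* stood at 8.33 and 11.8 CPM with EtOH and at 21.2 and 20.9 CPM with 4-HT. In PAC, *Sting1* stood at 7.92, 6.70, 6.77 and 12.7 CPM with EtOH and at 16.6, 15.4, 18.7 and 14.5 CPM with 4-HT. *Cgas*, the sensor that acts before it, rose by 0.84 in BAC and 0.85 in BPAC, and its changes of 0.76 in AC and 0.48 in PAC did not pass. In BAC, *Sting1* stood at 9.31, 12.02, 11.4 and 7.18 CPM with EtOH and at 32.5, 29.02, 33.8 and 33.9 CPM with 4-HT. In BPAC, *Sting1* stood at 7.01, 7.11, 9.77 and 6.68 CPM with EtOH and at 33.2, 25.5, 37.6 and 32.3 CPM with 4-HT. Within each genotype the treatments did not overlap for *Sting1*. Without the 4-HT-treated duplicate 1 samples of PAC its PAC change of 0.81 did not pass (edgeR adjusted p = 0.0164).

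*Ifitm3*, which encodes a membrane protein that blocks virus entry, rose by 2.01 ± 0.33 for PAC, 1.22 ± 0.32 for BAC and 1.81 ± 0.33 for BPAC, and its change of 1.63 ± 0.46 in AC did not pass (edgeR adjusted p = 0.016). Without the 4-HT-treated duplicate 1 samples of PAC its PAC change was 1.48, which still passed (edgeR adjusted p = 0.00737). Its difference for the *Braf* allele was -0.31 ± 0.36 with a 95% interval of -1.04 to 0.43. *Ptpn2*, a phosphatase that dampens interferon signaling, rose by 0.44 in BAC and 0.46 in BPAC with a difference of 0.34 ± 0.07 for the allele (edgeR adjusted p = 0.0031). These genes were chosen from the list of other pathway genes after their values were seen.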
